A study of Mus musculus with 6 samples.

Results

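The collagen genes of the mouse dorsal root ganglion were taken as every row of the deposited gene table whose symbol has the form Col, a number, the letter a and a number, which gave 44 of 22087 genes. They were divided by the kind of assembly their protein forms into 11 fibrillar collagens, 8 collagens of basement membranes and 25 other collagens. Of the 44, 41 had enough reads to be tested: all 11 fibrillar members, all 8 basement membrane members and 22 of the other 25. The 3 that were not tested, Col9a1, Col10a1 and Col17a1, had 30, 65 and 35 reads in all libraries together.

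Dorsal root ganglia hold the cell bodies of sensory neurons and are wrapped and penetrated by connective tissue. Poly(A) RNA of this tissue was sequenced from mice of 3 months in 6 libraries. The 3 control libraries carry the genotype Kif2a fl/fl, that is loxP-flanked alleles of the microtubule-depolymerizing kinesin Kif2a, with no Cre. The 3 conditional knockout libraries carry Kif2a fl/fl together with Avil Cre, in which Cre comes from the advillin gene, active in sensory neurons. Both groups carry the floxed alleles, and connective tissue cells of the knockout are not the cells in which advillin is known to be active. Nothing in the labels says whether separate or pooled animals stand behind the replicates. Every p-value below therefore judges a group difference only against the variation between these libraries, and some of that variation may be technical.

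Collagens are proteins of the extracellular matrix in which chains wind around each other into a triple helix, and the helix needs glycine at each turn of the repeat. Fibrillar collagens such as types I, III and V are secreted as procollagens, trimmed by proteases and packed into fibres, which in a nerve fill the epineurium and endoneurium. Type IV collagen forms the sheet-like network of basement membranes, which in a ganglion surround Schwann cells, satellite glia, perineurial cells and vessels. The remaining types include beaded filaments (type VI), chains that decorate fibrils, and transmembrane collagens.

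The repeat sets the fibrillar class apart in the coding sequence, while the basement membrane and other collagens overlap in it. The 2 stretches below, read from the GENCODE M21 transcripts of the GRCm38 mouse genome, are shown because they contrast an unbroken repeat with an interrupted one, and capitals mark the glycine codon (GGN) that opens each repeat of 3 codons. The type I chain is shown over codons 168 to 197 and the type IV chain over codons 209 to 237, where 2 extra codons break the repeat.
Col1a1: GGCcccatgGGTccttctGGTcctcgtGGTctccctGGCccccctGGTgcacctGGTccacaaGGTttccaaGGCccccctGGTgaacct
Col4a1: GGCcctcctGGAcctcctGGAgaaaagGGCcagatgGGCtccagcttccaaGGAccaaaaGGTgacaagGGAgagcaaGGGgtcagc
Counting a run as at least 4 glycine-led repeats in a row, the longest run of the 11 fibrillar chains had 216 to 344 repeats (median 338). In the 8 basement membrane chains the longest run had 30 to 66 repeats (median 41), and the 6 type IV chains were split into 22 to 27 runs each. Among the other 25 collagens the longest run had 23 to 113 repeats (median 52). Col24a1 and Col27a1 were the shortest of the fibrillar class, at 216 and 217 repeats.

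The type IV chains Col4a1 and Col4a2 are neighbours on chromosome 8 and are transcribed away from each other. Their annotated transcripts begin within each other, and the start region is printed because reads in it could belong to either gene. It covers chr8:11312801-11312830 on the plus strand of GRCm38.p6 (RefSeq), and capitals mark the 22 bases that lie between the start of Col4a2 at 11312805 and that of Col4a1 at 11312826.
Col4a1 and Col4a2 start region: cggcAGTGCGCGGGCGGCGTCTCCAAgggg
This overlap is 0.29% of the exon length of Col4a1, and whether reads were counted by strand is not given in the sources used here.

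Promoter sequence is shown for 2 abundant fibrillar genes whose highest library was knockout replicate 1 and for 2 collagens that were higher in every knockout library than in every control. Each line gives the 250 bases before the RefSeq start in GRCm38.p6, read on the strand of the gene, and capitals mark 3 short promoter motifs on either strand, namely CCAAT, known as the CCAAT box, GGGCGG, known as the GC box, and TATAAA, known as the TATA box. The windows are Col1a2 at chr6:4505368-4505617 (plus strand), Col3a1 at chr1:45311288-45311537 (plus strand), Col5a3 at chr9:20815068-20815317 (minus strand) and Col16a1 at chr4:130047590-130047839 (plus strand).
Col1a2: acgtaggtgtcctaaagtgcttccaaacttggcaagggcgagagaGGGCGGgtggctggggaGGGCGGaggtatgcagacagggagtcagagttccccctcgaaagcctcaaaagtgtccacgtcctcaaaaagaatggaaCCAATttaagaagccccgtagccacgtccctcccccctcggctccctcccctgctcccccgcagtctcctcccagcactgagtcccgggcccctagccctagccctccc
Col3a1: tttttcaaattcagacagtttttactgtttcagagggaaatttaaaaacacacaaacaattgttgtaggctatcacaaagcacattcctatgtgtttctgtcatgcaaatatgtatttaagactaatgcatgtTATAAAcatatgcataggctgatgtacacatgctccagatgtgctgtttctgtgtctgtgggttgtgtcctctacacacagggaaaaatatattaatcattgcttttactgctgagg
Col5a3: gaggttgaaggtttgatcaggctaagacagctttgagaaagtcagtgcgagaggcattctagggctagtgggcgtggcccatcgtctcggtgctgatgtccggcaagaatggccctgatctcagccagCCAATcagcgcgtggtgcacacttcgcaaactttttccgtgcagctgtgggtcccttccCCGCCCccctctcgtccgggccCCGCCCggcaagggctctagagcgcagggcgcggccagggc
Col16a1: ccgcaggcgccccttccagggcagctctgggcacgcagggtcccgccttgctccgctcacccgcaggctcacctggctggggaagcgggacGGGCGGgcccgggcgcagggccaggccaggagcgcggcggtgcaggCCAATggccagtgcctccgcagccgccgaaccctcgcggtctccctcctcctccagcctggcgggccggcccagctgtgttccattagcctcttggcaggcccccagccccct
The Col3a1 window was the poorest in G and C, at 35.2%, against 62% in Col1a2, 62.8% in Col5a3 and 75.6% in Col16a1. RefSeq windows were matched to 35 of the 44 collagen genes, as 38 windows. CCAAT occurred in 34.2% of those 38 and in 33.8% of all 32851 windows of the same length. TATAAA occurred in 13.2% against 12.4%, and GGGCGG in 57.9% against 32.7%, so the last of these was more frequent among the collagen windows, without a test.

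Library totals ran from 21683083 to 31626625 reads. Levels are given as CPM, read counts per 1000000 of the TMM-scaled library total. Throughout, values are given in the order of replicates 1, 2 and 3. Kif2a stood at 86.4, 80.4 and 90 CPM in the control and at 69.8, 66.5 and 67.4 CPM in the knockout, so every knockout library was below every control (log2 fold change -0.33 ± 0.10 (SE), edgeR quasi-likelihood adjusted p = 0.9999). Avil was at 582.3 ± 17.5 CPM in the control and 286.6 ± 68.7 CPM in the knockout (SD, n = 3 each). The tissue label was met by the sensory neuron markers, whose summed level was 11120 to 12890 CPM in the control and 9322 to 13840 CPM in the knockout. These 11 markers include Avil itself. Control replicate 2 and knockout replicate 1 stand apart from the others in several marker lists given further on. Knockout replicates 2 and 3 also stand apart, as the lowest libraries for skeletal muscle and fat markers. The collagen results are given with and without knockout replicate 1, and in part without control replicate 2.

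The collagens together took 1326, 1414 and 1310 CPM in the 3 control libraries. In the knockout they took 2299 CPM in replicate 1, 994.6 CPM in replicate 2 and 979.6 CPM in replicate 3. One knockout library was thus above every control and the other 2 were below every control, so the groups overlap from both sides. The same order of libraries held in all 3 classes. Fibrillar collagens summed to 701.6, 875 and 722.3 CPM in the control and to 1324, 532.6 and 527.4 CPM in the knockout. Basement membrane collagens summed to 179.2, 168.6 and 202.5 CPM in the control and to 310.2, 151 and 152.7 CPM in the knockout. The other collagens summed to 444.7, 370.5 and 385.4 CPM in the control and to 664.3, 311 and 299.5 CPM in the knockout.

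Group means hid this split. Fibrillar collagens averaged 766 ± 94.7 CPM in the control and 795 ± 458 CPM in the knockout (SD, n = 3 each), or 103.7% of control. Basement membrane collagens stood at 111.6% of control and the other collagens at 106.2%. Without knockout replicate 1 the same sums were 69.2%, 82.8% and 76.3% of control, and all collagens together were 73.1%. Leaving out any other library gave sums between 99.5% and 126% of control, over the 3 classes and their total. The balance between classes varied less than their level: fibrillar collagens made up 52.9% to 61.9% of all collagen CPM in the 6 libraries, basement membrane collagens 11.9% to 15.6%, and the others 26.2% to 33.6%. In whole tissue, fewer cells of a type and less RNA per cell cannot be told apart.

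**Figure D1:**
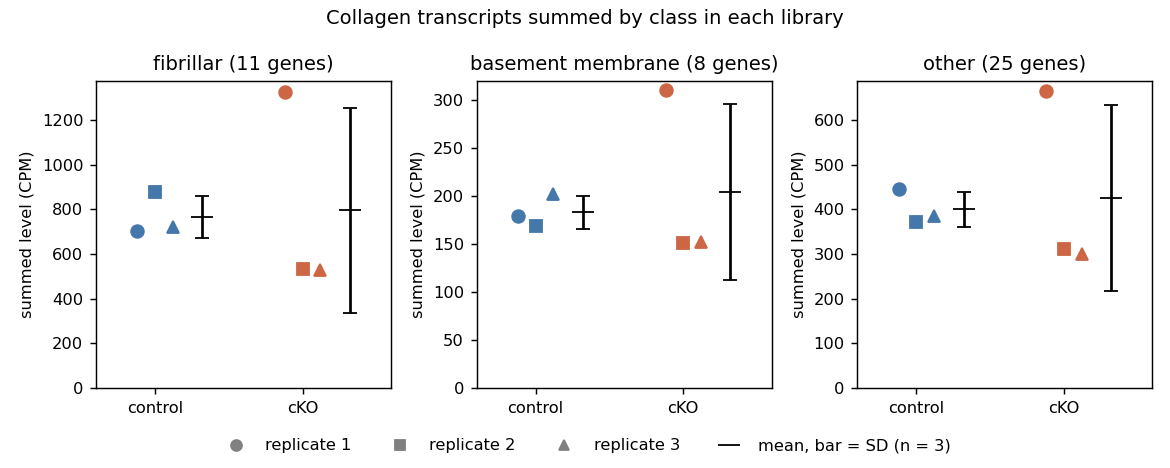
Summed CPM of the fibrillar, basement membrane and other collagens (vertical axes, linear, from 0) in each of the 6 libraries, with a bar at the group mean and SD. In each class knockout replicate 1 lies above all 3 controls and knockout replicates 2 and 3 lie below them.

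Gene by gene, no collagen passed the test over all genes. In edgeR's quasi-likelihood test with Benjamini-Hochberg adjustment over 17759 genes, 0 of 41 collagens were called at an adjusted p under 0.05, where 0.0225% of all genes were called (4 genes, all lower in the knockout), and DESeq2 likewise called 0 collagens against 0.205% of all genes it tested. The smallest adjusted p was 0.825, for Col16a1. At an unadjusted p under 0.05 there were 2 collagens, both higher in the knockout, or 2 of 41 against 4.67% of all genes (1.58% higher and 3.09% lower). That share is close to the background. Groups that did not overlap were found for 3 of the 41 collagens, Col5a3, Col16a1 and Col20a1, all higher in the knockout, where 3.96% of all genes had non-overlapping groups in that direction and 4.7% in the other.

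Of the 41 tested collagens, 28 had a fold change above 0 and 13 below, and 48.4% of all genes were below 0. The median log2 fold change, knockout over control, was 0.10 over all collagens, 0.19 over fibrillar, 0.15 over basement membrane and 0.07 over other collagens, beside 0.0059 over all genes. The 6 type IV chains alone had a median of 0.02. All 6 type VI chains were above 0 (median 0.28), and all 3 tested transmembrane collagens were below 0 (median -0.25). Without knockout replicate 1 the directions turned for many members: 28 of the 41 collagens were below 0 and the medians were -0.30 over all, -0.21 over fibrillar, -0.27 over basement membrane and -0.34 over other collagens. In that fit 15 collagens were lower and 4 higher at an unadjusted p under 0.05, against 5.41% and 2.63% of all genes, or 19 of 41 in either direction against 8.04%. None passed an adjusted p of 0.05 by edgeR there, where 0.0552% of all genes did. The smallest adjusted p was 0.083, shared by the type VI chain Col6a1 (log2 fold change -0.80) and the type VIII chain Col8a2 (-1.59). These counts are given for this omission because knockout replicate 1 was seen to have the highest collagen total. An excess on the low side follows from that choice. Collagens that vary together are also not replicates, so these shares are description and no evidence of a change.

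**Figure D2:**
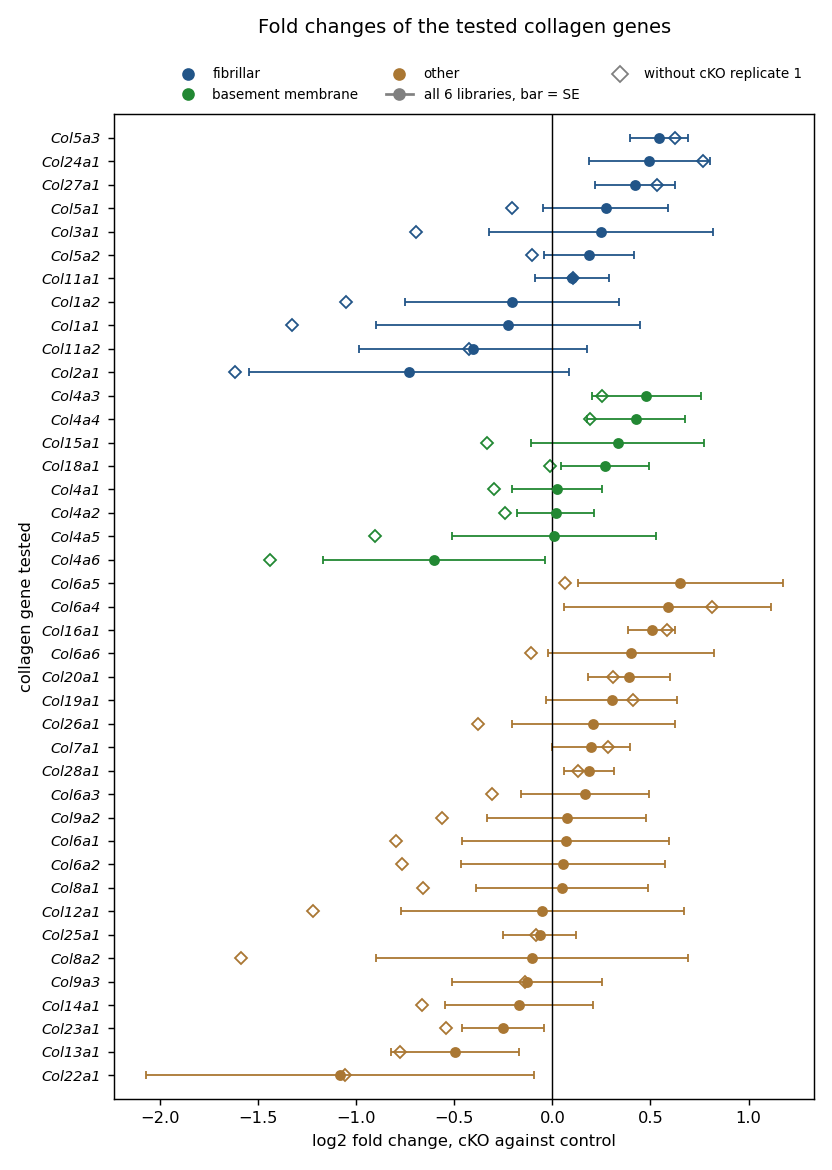
Log2 fold change, knockout over control, of the 41 tested collagens by class, with bars of 1 SE from edgeR and a second mark for the value without knockout replicate 1. Many members lie above 0 with all libraries and below 0 without that replicate. Without it 13 of the 41 lie above 0, among them Col5a3 and Col16a1, which lie above 0 in both.

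The library behind this split was visible in single genes. Knockout replicate 1 was the highest of the 6 libraries for 27 of the 41 tested collagens (65.9%), where it was the highest for 23.8% of all genes. It was above every control for 29 collagens (70.7%, against 31.6% of all genes) and below every control for 0 (against 30% of all genes). Knockout replicate 2 was below every control for 19 collagens (46.3%, against 33.4% of all genes), and knockout replicate 3 for 23 (56.1%, against 31.3%). Basement membrane collagens had this order most uniformly, since knockout replicate 1 was the highest library for all 8. Control replicate 2 was the highest library for 7 collagens (17.1%, against 15.3% of all genes), among them the cartilage fibril genes Col2a1, Col11a1 and Col11a2.

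**Figure D3:**
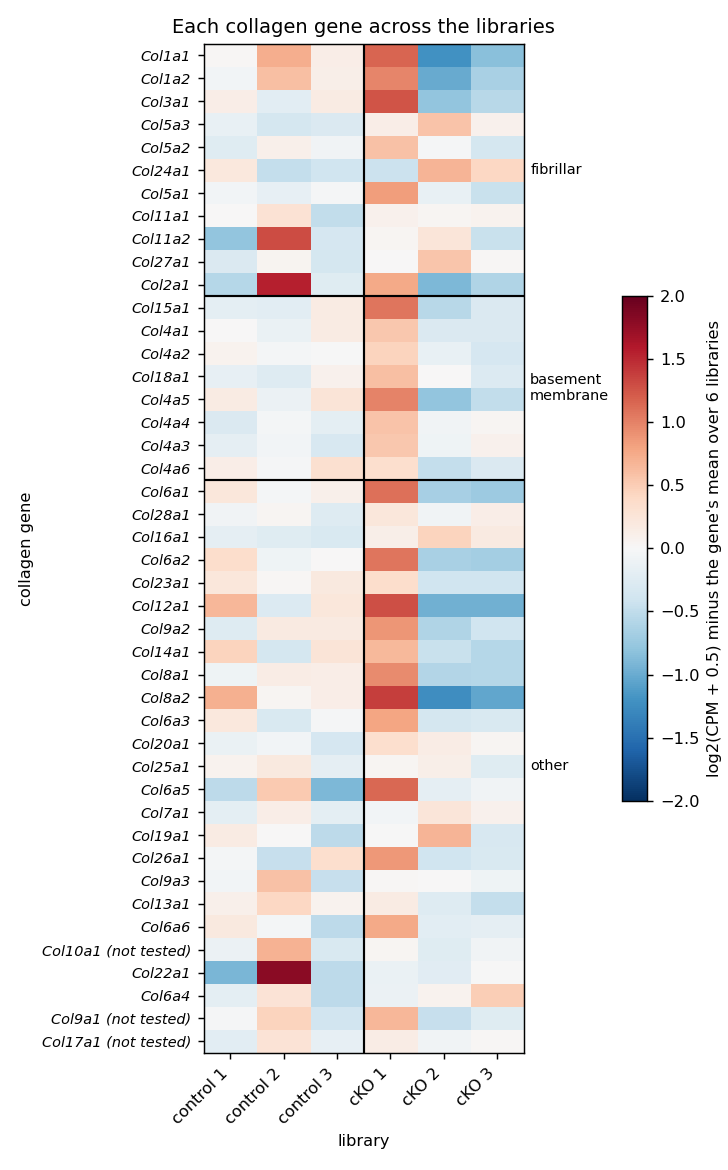
Heat map of all 44 collagens (rows, grouped by class, the 3 untested ones marked) in the 6 libraries (columns), coloured by log2(CPM + 0.5) minus the mean of that gene over the 6 libraries. Knockout replicate 1 is the highest library for 27 of the 41 tested genes, and control replicate 2 for 7.

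Levels were compared between genes as CPM per kb of exon length, taking the union of annotated exons. The interstitial fibrillar chains led: Col1a1 at 20.7 ± 12.1, Col1a2 at 19.2 ± 9.47 and Col3a1 at 17.2 ± 10.2 CPM per kb (SD over 6 libraries). Next came Col5a3 at 12.7 ± 3.22, Col6a1 at 11.2 ± 5.75, Col15a1 at 9.80 ± 4.76, Col28a1 at 9.52 ± 1.12, Col4a1 at 8.66 ± 2.06 and Col16a1 at 7.31 ± 1.56 CPM per kb. The lowest were Col17a1 at 0.041, Col9a1 at 0.044 and Col4a6 at 0.049 CPM per kb. The ranges of neighbours in this order overlapped in all 43 neighbouring pairs, and in 3 pairs the higher gene was higher in each of the 6 libraries (Col5a1 above Col18a1, Col20a1 above Col25a1, and Col4a3 above Col6a6). With the longest transcript in place of the union of exons, Col1a2 was at 44.5 and Col3a1 at 30.4 CPM per kb and both stood above Col1a1 at 22.9, so the order of the top 3 depends on the length used.

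Type I collagen, the main fibre of the epineurium, followed the overall split. Col1a1, its alpha 1 chain on chromosome 11, had 119, 193 and 128 CPM in the control and at 261, 50.4 and 64.9 CPM in the knockout. Col1a2, the alpha 2 chain on chromosome 6, was at 207.1, 325.6 and 232.1 CPM in the control and at 419.8, 106.7 and 136.9 CPM in the knockout. In both genes the highest and the lowest library belong to the knockout. The log2 fold changes were -0.23 ± 0.67 for Col1a1 and -0.21 ± 0.55 for Col1a2 (SE). Col3a1, which forms thin fibres with type I, was at 165.3, 129.8 and 168.3 CPM in the control and at 361, 87 and 102.2 CPM in the knockout (0.25 ± 0.57). Without knockout replicate 1 the log2 fold changes were -1.33 for Col1a1, -1.05 for Col1a2 and -0.70 for Col3a1.

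Type V chains set the width of type I fibrils and did not all share that order. Col5a1 was at 25.4, 23.6 and 26.1 CPM in the control and at 47.8, 23.7 and 19.3 CPM in the knockout (log2 fold change 0.27 ± 0.32). Col5a2 was at 44.2, 56.1 and 49.5 CPM in the control and at 78.6, 51.6 and 40.6 CPM in the knockout (0.19 ± 0.23). Col5a3, the alpha 3 chain, known in the rat from Schwann cells, was at 76.3, 66.3 and 68.7 CPM in the control and at 92.2, 125.6 and 89.9 CPM in the knockout. All 3 knockout libraries of Col5a3 lay above all 3 controls, and its highest library was knockout replicate 2, not replicate 1. The mean was 70.4 ± 5.22 CPM in the control and 102.6 ± 20 CPM in the knockout (SD, n = 3 each), a log2 fold change of 0.54 ± 0.15. Its unadjusted p was 0.0053, its edgeR adjusted p was 0.947 and its DESeq2 adjusted p was 0.247, so it did not pass. The exact two-sided permutation test gave p = 0.1 for Col5a3, the smallest that 3 libraries against 3 allow. In the authors' deposited table Col5a3 has a log2 fold change of 0.55 and a false discovery rate of 0.0069. That rate is labelled as computed by fdrtool, not by Benjamini-Hochberg adjustment, so it is not on the scale of the adjusted p-values here. Col5a3 is not among the 145 genes (0.656%) marked there, of which 0 are collagens.

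Col24a1 and Col27a1, fibrillar chains known from developing bone and cartilage, had the smallest p of the class after Col5a3. Col24a1 was at 27.9, 17.2 and 18.1 CPM in the control and at 17.8, 38.7 and 32.4 CPM in the knockout (log2 fold change 0.50 ± 0.31, edgeR adjusted p = 0.9999). Col27a1 was at 9.53, 12.2 and 9.11 CPM in the control and at 11.9, 17.5 and 11.9 CPM in the knockout (0.42 ± 0.20, edgeR adjusted p = 0.9999). In both genes knockout replicate 2 was highest and the groups overlapped.

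A further set, picked after the values were seen, was high in control replicate 2. Col11a2, a cartilage fibril chain, was at 3.37, 16 and 4.82 CPM in the control and at 6.37, 7.41 and 4.45 CPM in the knockout. Col2a1, the main fibre of cartilage, was at 1.37, 7.64 and 1.84 CPM in the control and at 4.22, 0.993 and 1.33 CPM in the knockout. Col22a1, found at tissue junctions, was at 0.274, 4.61 and 0.517 CPM in the control and at 0.825, 0.745 and 0.942 CPM in the knockout. The highest library for all 3 genes was control replicate 2, and Col2a1 was also raised in knockout replicate 1, at 4.22 CPM. The log2 fold changes were -0.41 for Col11a2, -0.73 for Col2a1 and -1.08 for Col22a1 with all libraries, and 0.57, 0.43 and 1.05 without control replicate 2. That library also held 191 reads of the bone gene Bglap, against 2 to 19 in each other library, and 89 reads of the bone transcription factor Sp7, against 1 to 14. Its score on the 4 tested bone markers of 7, as the mean deviation on the log2 scale defined with the marker lists further on, was 1.25, against -0.50 to -0.15 in the other libraries. The summed level of the 7 bone markers was 28.8 to 75.4 CPM in the control and 22.5 to 29.2 CPM in the knockout. The 4 tested cartilage markers scored -0.02 in control replicate 2, between the -0.26 and 0.28 of the other libraries, and the 5 cartilage markers in the table, tested or not, summed to 55 to 68.3 CPM in the control and 50.8 to 59.3 CPM in the knockout. The part of bone and cartilage markers in these 3 genes was not tested.

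The type IV chains Col4a1 and Col4a2, which assemble together in most basement membranes, had fold changes close to 0. Col4a1 was at 63.5, 57.7 and 71 CPM in the control and at 92.2, 51.8 and 51.7 CPM in the knockout (log2 fold change 0.02 ± 0.23). Col4a2 was at 40.5, 37.4 and 38.3 CPM in the control and at 52.7, 34.6 and 30.2 CPM in the knockout (0.02 ± 0.19). For both, knockout replicate 1 lay above all controls and the other knockout libraries below them, and without that replicate the values were -0.30 and -0.24. Col4a3 and Col4a4, chains of the specialised network known from kidney, were low. Col4a3 was at 1.87, 2.06 and 1.65 CPM in the control and at 3.39, 2.03 and 2.35 CPM in the knockout (0.48 ± 0.28, edgeR adjusted p = 0.9999). Col4a4 was at 3.15, 3.82 and 3.39 CPM in the control and at 6.10, 3.77 and 4.07 CPM in the knockout (0.43 ± 0.25, edgeR adjusted p = 0.9999). Both pairs of ranges overlapped in replicate 2 of each group. Of the X-linked chains, Col4a5 was at 1.41 to 6.05 CPM and Col4a6 at 0.124 to 0.596 CPM.

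The multiplexins, whose central helix is broken by many interruptions and which are anchored at basement membranes, were counted with this class. Col15a1 was at 50.5, 49.7 and 65 CPM in the control and at 121.6, 39.3 and 47.4 CPM in the knockout (log2 fold change 0.33 ± 0.44). Col18a1, the precursor of endostatin, was at 16.1, 15 and 19.1 CPM in the control and at 27.6, 18.1 and 14.9 CPM in the knockout (0.27 ± 0.22). Knockout replicate 1 was the highest library for both, and without it the values were -0.34 and -0.01.

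Among the other collagens, Col6a1, Col6a2 and Col6a3, chains of the type VI beaded filaments around cells, had the split of type I. Col6a1 was at 51.9, 43.4 and 48 CPM in the control and at 95.7, 27.8 and 26.7 CPM in the knockout (log2 fold change 0.07 ± 0.53). Col6a2 was at 64.4, 47.8 and 50.8 CPM in the control and at 106.2, 31.9 and 31.3 CPM in the knockout (0.06 ± 0.52). Without knockout replicate 1 they were at -0.80 and -0.77. Col6a3, the long alpha 3 chain, ranged from 14.9 to 33.4 CPM, and Col6a4, Col6a5 and Col6a6 from 0.194 to 12 CPM. These last chains did not have the full split: Col6a4 was highest in knockout replicate 3, and for Col6a5 and Col6a6 knockout replicates 2 and 3 lay within the range of the controls. Col28a1, known in mouse nerve from the basement membranes of certain Schwann cells, was among the steadiest members: 44.4, 47.8 and 38.8 CPM in the control and 54.4, 44 and 50.7 CPM in the knockout (0.19 ± 0.13).

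Col16a1, a fibril-associated chain, had the smallest p of all collagens. It was at 42.6, 40.8 and 39 CPM in the control and at 52.4, 66.4 and 55 CPM in the knockout. All 3 knockout libraries lay above all 3 controls, and knockout replicate 1 was the lowest of the 3. The mean was 40.8 ± 1.81 CPM in the control and 57.9 ± 7.42 CPM in the knockout (SD, n = 3 each), a log2 fold change of 0.51 ± 0.12. The unadjusted p was 0.0023 and the edgeR adjusted p was 0.825, so it did not pass, and the exact permutation test was at its smallest p of 0.1. The authors' deposited table gives Col16a1 a log2 fold change of 0.51, without the mark it gives to fold changes past its limit. Its false discovery rate there, 0.003, is again that of fdrtool and not a Benjamini-Hochberg value. Col20a1, another fibril-associated chain, was at 3.97, 4.21 and 3.36 CPM in the control and at 5.68, 4.92 and 4.49 CPM in the knockout (0.39 ± 0.21, edgeR adjusted p = 0.9999).

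Col13a1, a transmembrane collagen of the neuromuscular junction, was at 1.46, 1.93 and 1.42 CPM in the control and at 1.56, 1.03 and 0.813 CPM in the knockout (log2 fold change -0.50 ± 0.33, edgeR adjusted p = 0.9999). Its ranges overlapped through knockout replicate 1. The other tested transmembrane members were Col23a1, at 22.5 to 38.2 CPM, and Col25a1, at 7.15 to 9.96 CPM. Of the members not named by the rule, Col12a1, a fibril-associated chain of dense connective tissue, was at 79.9, 41.2 and 58.9 CPM in the control and at 122.7, 25.5 and 25.6 CPM in the knockout. It was singled out after its values were seen, as the only collagen to pass with control replicate 2 and knockout replicate 1 both left out. Its log2 fold change was then -1.43 (edgeR adjusted p = 0.0145). That omission removed its lowest control and its highest knockout library, so a lower value follows from the choice. With all libraries the log2 fold change was -0.05 ± 0.72 (SE, edgeR adjusted p = 0.9999), so the pass is no evidence of a change. Col8a2, a short-chain network collagen, was at 12.6, 7.68 and 8.31 CPM in the control and at 20.4, 2.90 and 3.38 CPM in the knockout.

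Chains that assemble together varied less in their proportion than in their level, in each of the 5 pairs of which both chains were tested. The ratio of Col1a1 to Col1a2, on CPM per kb, was 1.09, 1.12 and 1.04 in the control and 1.18, 0.893 and 0.898 in the knockout, while Col1a1 itself ranged from 50.4 to 261 CPM. The ratio of Col4a1 to Col4a2 lay between 1.33 and 1.65, that of Col4a3 to Col4a4 between 0.517 and 0.633, that of Col6a1 to Col6a2 between 1.53 and 1.80, and that of Col5a1 to Col5a2 between 0.474 and 0.687. The ratio of Col9a1 to Col9a2 was at most 0.0222, since Col9a1 was near 0. None of the 6 ratios differed detectably between groups: the exact two-sided permutation p was 0.4 for type I, 1 for Col4a1 to Col4a2, 0.7 for Col4a3 to Col4a4, 0.9 for type VI, 1 for type V and 0.7 for type IX, and each was 1 after Benjamini-Hochberg adjustment over the 6. With 3 libraries a group this does not show the ratios to be equal. The value of a ratio, but not its comparison between groups, depends on the exon length used, and with the longest transcript the mean ratio of Col1a1 to Col1a2 was 0.494.

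**Figure D4:**
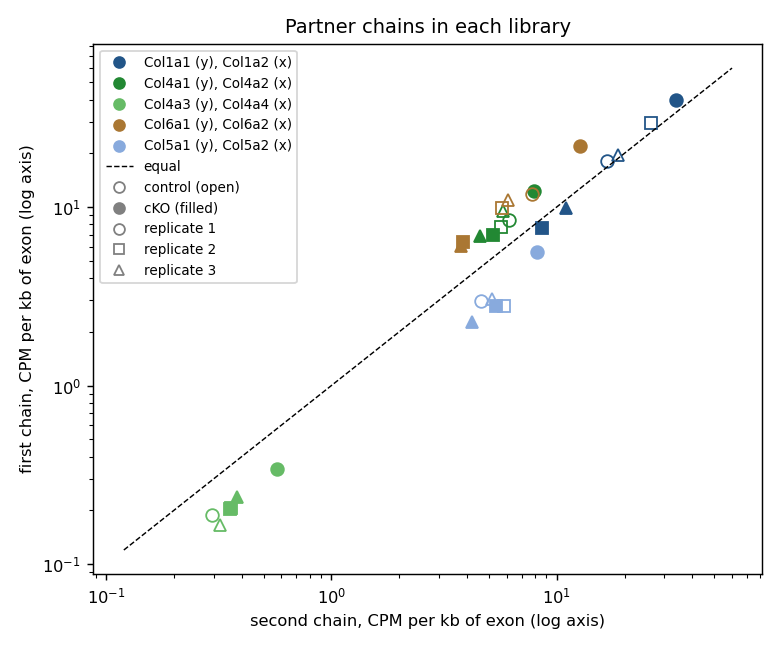
CPM per kb of 2 chains of the same collagen plotted against each other on log axes, 1 point per library. The libraries spread along the diagonal, with knockout replicate 1 at the top and knockout replicates 2 and 3 at the bottom for Col1a1 and Col1a2.

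Genes that make, bind and remove collagen were examined as 6 lists. In them 0 members passed over all genes by edgeR or DESeq2, where 0.0225% and 0.205% of all genes passed. Beside the signs given below, 48.4% of all genes had a fold change below 0. Of 18 genes that modify and fold the chains, 11 were above 0 and 7 below (median log2 fold change 0.05). The 3 with the smallest p were Ppib, a prolyl isomerase (0.17 ± 0.11), P3h3 (0.30 ± 0.23) and P3h1 (0.19 ± 0.17), prolyl hydroxylases. Of 13 genes that cleave and cross-link procollagen, 9 were above 0 (median 0.15). Its 3 leading members were Tll2, a procollagen protease (0.63 ± 0.34), Loxl4, a lysyl oxidase (-0.44 ± 0.37), and Adamts14, which removes the amino-terminal propeptide (0.24 ± 0.29). Lox, the founding lysyl oxidase, was at 27.8, 26.9 and 27.1 CPM in the control and at 43.2, 11.5 and 16.7 CPM in the knockout, the order of libraries seen in type I collagen.

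Collagen receptors were evenly divided, with 4 of 8 tested members above 0 (median -0.01). Ddr1, a collagen-binding receptor tyrosine kinase, was at 24.4, 27.9 and 26.1 CPM in the control and at 21.6, 18.8 and 16.4 CPM in the knockout, with every knockout library below every control. Its log2 fold change was -0.46 ± 0.14, with an unadjusted p of 0.0077 and an edgeR adjusted p of 0.977. Itga1, the integrin alpha 1 chain, stood at 0.42 ± 0.22 and Lair1, an inhibitory receptor of leukocytes, at 0.45 ± 0.29. Of 11 genes of collagen breakdown and its inhibitors, 7 were below 0 (median -0.07). The metalloproteinase inhibitors Timp2 and Timp4 were at -0.30 ± 0.14 and -0.67 ± 0.38. Mmp13, a collagenase of bone and cartilage, was at 41.2 CPM in control replicate 2 and at 0.910 to 4.46 CPM elsewhere, so its log2 fold change of -2.45 ± 1.45 rests on that library and was 0.03 without it.

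Of 10 tested small leucine-rich proteoglycans and fibril partners, 8 were above 0 (median 0.08). Fibronectin (Fn1) was at -0.46 ± 0.40, lumican (Lum) at 0.38 ± 0.45 and decorin (Dcn) at 0.24 ± 0.44, and without knockout replicate 1 the last pair was at -0.22 and -0.32. Of 15 non-collagen proteins of basement membranes, 14 were above 0 (median 0.19), the most one-sided of the 6 lists by sign. Over all genes, 48.4% were below 0. Lama3 and Lama5, laminin chains, were at 0.53 ± 0.22 and 0.42 ± 0.22, and Agrn, a heparan sulfate proteoglycan, at 0.35 ± 0.19. Lama3 had an unadjusted p of 0.0416 and an edgeR adjusted p of 0.9999. Without knockout replicate 1 the medians of the 6 lists were -0.03 for chain modification, -0.17 for cleavage and cross-linking, -0.41 for receptors, -0.51 for breakdown, -0.59 for proteoglycans and -0.09 for basement membrane proteins. The filter was rerun for that fit and kept 18131 genes. Members such as the receptor Gp6, not tested with all libraries, can therefore enter these medians.

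Marker lists of the cell types a ganglion sample can hold were set beside the collagens. Each library was scored as the mean, over tested markers, of log2(CPM + 0.5) minus the mean of the 6 libraries, while sums run over all listed markers in the table, tested or not. On the 10 fibroblast markers the control scored 0.18, -0.14 and 0.07 and the knockout 0.86, -0.73 and -0.24, and 7 of 10 had a fold change above 0. Their summed level was 1706 to 2072 CPM in the control and 1050 to 3521 CPM in the knockout. The 10 perineurial and leptomeningeal markers scored -0.03, -0.02 and 0.22 in the control and 0.85, -0.40 and -0.62 in the knockout, with sums of 445.1 to 910.7 and 244.8 to 1156 CPM. The 9 mural markers scored -0.20, 0.10 and -0.05 against 0.79, -0.24 and -0.40, with sums of 138 to 291.8 and 135.3 to 381.2 CPM. In these 3 lists knockout replicate 1 was the highest library by score and by sum. The other knockout libraries were the lowest by score but not always by sum: fibroblast markers summed to 1859 CPM in knockout replicate 3, above the 1706 and 1809 CPM of control replicates 1 and 2. Perineurial markers summed to 708.3 CPM in knockout replicate 2, above the 576.4 and 445.1 CPM of those controls. Mural markers summed to 245.2 CPM in knockout replicate 2, above the 138 and 158.6 CPM of control replicates 1 and 3.

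The remaining cell types of the ganglion varied less or in another order. The 9 endothelial markers scored -0.08, -0.19 and 0.08 in the control and 0.43, -0.20 and -0.04 in the knockout, with sums of 138.6 to 167.1 and 140.2 to 217.6 CPM. The 11 Schwann cell markers scored 0.13, -0.20 and 0.16 against 0.55, -0.40 and -0.24, with sums of 6662 to 8449 and 4996 to 10590 CPM. By score and by sum, knockout replicate 1 was above every control for Schwann cell markers, and knockout replicates 2 and 3 were below every control. The 6 satellite glia markers scored between -0.11 and 0.10 in all libraries, with sums of 5791 to 6080 and 5190 to 6747 CPM. Satellite glia, which wrap the neuron bodies, were thus the steadiest of these cell types by score. The 8 macrophage markers scored -0.17, 0.12 and -0.01 against 0.75, -0.77 and 0.08, with sums of 128.1 to 158 and 87.7 to 260.6 CPM. The 6 tested lymphocyte markers of 8 scored -0.43, 0.46 and -0.61 against 0.94, -0.92 and 0.56, with sums of 17.1 to 35.1 and 11.1 to 65.9 CPM. By score, knockout replicate 1 was the highest library in 4 of these 5 lists, satellite glia being the exception.

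Among markers of tissues outside the ganglion, those of skeletal muscle, fat and the central nervous system spread over a wider range of scores than any list of ganglion cell types, while those of bone and cartilage did not. The 7 tested skeletal muscle markers of 8 scored 0.69, -0.23 and 1.98 in the control and 1.89, -2.30 and -2.03 in the knockout, with sums of 50.3 to 215.7 CPM in the control and 5.09 to 318.2 CPM in the knockout. The 4 tested fat markers of 5 scored -0.19, 1.12 and -0.47 against 1.97, -1.32 and -1.10, with sums of 7.05 to 25.9 and 3.06 to 57.2 CPM. Knockout replicates 2 and 3 were thus the lowest libraries for muscle and for fat. The 5 tested central nervous system markers of 8 were highest in control replicate 2, at 1.44, and lowest in knockout replicates 2 and 3, at -1.11 and -0.91, with sums of 95 to 243.6 and 31.4 to 99.8 CPM. Sensory neuron markers scored 0.11, 0.05 and 0.20 in the control and -0.35, 0.12 and -0.13 in the knockout, so knockout replicate 1 was the lowest library there. That list includes Avil, the gene that carries Cre, which was at 49.2% of control in the knockout. No listed marker with a row in the table was at 0 in all libraries. The part of these markers in the collagen values was not tested.

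**Figure D5:**
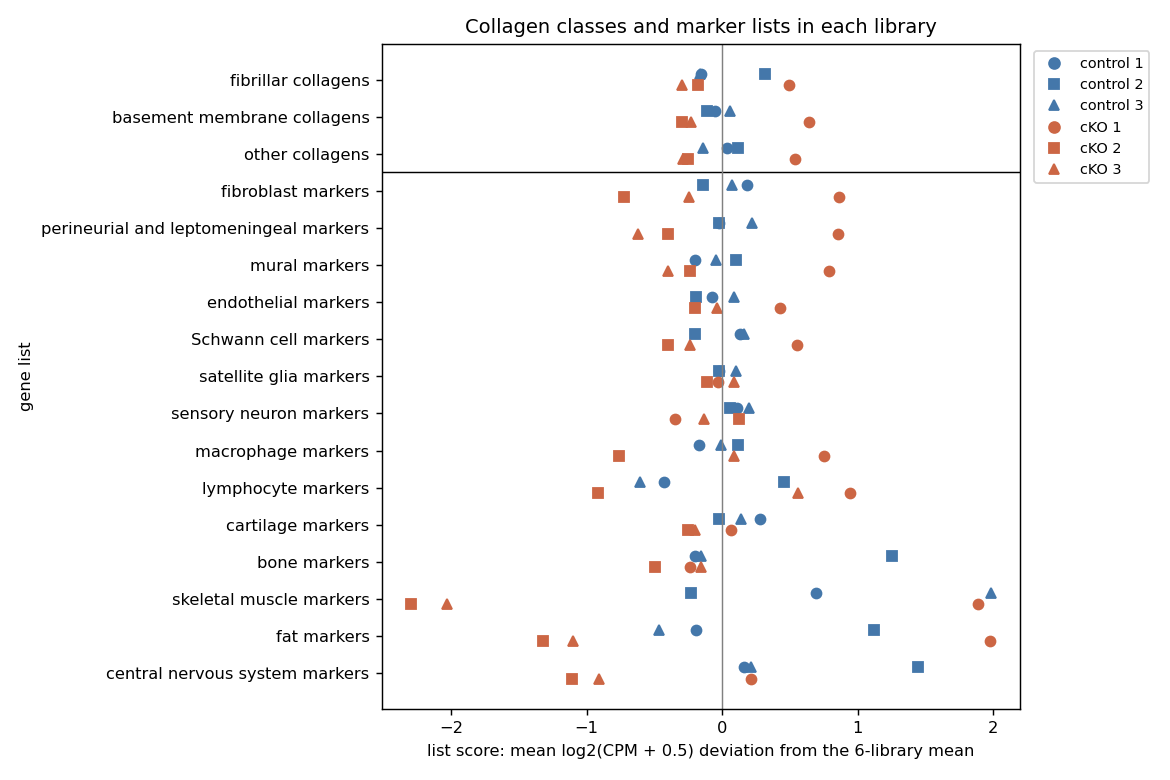
Library score (mean log2(CPM + 0.5) relative to the 6-library mean) of the collagen classes and of the cell type marker lists, 1 point per library. By score, knockout replicate 1 is highest for collagens and for fibroblast, perineurial, mural, endothelial, Schwann cell, macrophage, lymphocyte and fat markers. It is lowest for sensory neuron markers.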

How the data were processed

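The deposited table holds, per the file headers, whole read counts per gene for 6 libraries, the authors' normalized signal and their own comparison as a log2 fold change with p-values. The normalized signal is, from its constant ratio to the raw count, the count divided by one size factor per library by the authors; it was used only to check the table. The tools cutadapt, STAR and DESeq2 and the build mm10 are listed in the submitters' processing notes, without versions. The counting program and its strand setting are not stated there.

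Groups and replicate numbers came from the labels. Genes were kept by filterByExpr (minimum count 10), scaled by TMM and fitted with edgeR 4.0.16 (robust quasi-likelihood, R 4.3.3) on all 17759 genes kept, with Benjamini-Hochberg adjustment over all of them. The SE of a log2 fold change is its size over the square root of F. DESeq2 1.42.0 and limma 3.58.1 (prior count 1), other scalings and filters, a replicate block and left-out libraries were alternatives. Exon lengths came from GENCODE M21. Single values were compared with an exact two-sided permutation test, whose smallest p is 0.1.

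Collagen members, classes and the 20 gene lists were chosen with earlier results of these data known, so no list was tested. Genes described in full were the 4 highest per kb and the 3 of smallest unadjusted p in each class, both chains of each tested pair, and the 3 of smallest p in each pathway list; others were named after their values were seen. Of the listed genes, 4 had no row in the table. The fit was tested on simulated data, where it called 17.9% of 1.5-fold, 58.2% of 2-fold and 93.9% of 4-fold changes. Of its 126 calls there, 13 were false. Changes near 1.5-fold were thus mostly missed, so a collagen that did not pass is not shown to be unchanged. The changed genes there were drawn from all genes above a minimum level, with noise independent between genes. Collagens vary together and some have a large SE (0.67 for Col1a1), so these rates may be too high for them. Depths of 21683083 to 31626625 counts per library set the counting precision.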

Additional observations from a re-analysis of the deposited data

How the results depend on the processing

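Of 770 recomputed values, 691 were counted as unchanged, 34 as moved, 2 as stronger and 43 as reversed. Unchanged values kept their direction and side of the threshold, stayed within the spread between libraries or, for counts, stayed close to the main count. The median over all genes was counted as unchanged without a comparison. Of the 43 reversed, 37 were single collagens (of 280 for the 20 collagens described in full). No collagen passed by DESeq2, limma-trend, other scalings, other filters or with any single library left out, and 1 passed with control replicate 2 and knockout replicate 1 both left out. The 4 genes called over all genes became 35 by DESeq2, 25 with those 2 libraries left out and 0 to 13 with any 1 left out. Replicate numbers showed no sign of pairing the libraries. On the log2 scale, deviations of same-numbered libraries from their group means correlated at -0.17, -0.26 and -0.12. The replicate block called 0 genes over all, collagens included. The median log2 fold change ranged over left-out libraries from -0.297 to 0.308 for all collagens, -0.207 to 0.39 for fibrillar, -0.27 to 0.368 for basement membrane and -0.343 to 0.319 for other collagens. With both libraries left out it was -0.249 for all and -0.319 for basement membrane collagens. Under limma-trend it was -0.0244 for all collagens and -0.0459 for the others. Single genes reversed as follows, and the cause was not tested. Under limma-trend Col3a1 was at -0.0564, Col4a1 at -0.0257, Col4a2 at -0.0244, Col6a1 at -0.201 and Col6a2 at -0.186. Under the replicate block they were at -0.0701, -0.0264, -0.0241, -0.206 and -0.187. With both libraries left out Col15a1 was at -0.403, Col18a1 at -0.0846, Col3a1 at -0.807, Col4a1 at -0.368, Col4a2 at -0.27, Col5a1 at -0.249, Col5a2 at -0.0125, Col6a1 at -0.862, Col6a2 at -0.854, Lum at -0.269 and Dcn at -0.32.
Over single left-out libraries the log2 fold change ran from -1.33 to 0.156 for Col1a1, -1.05 to 0.132 for Col1a2, -0.297 to 0.175 for Col4a1, -0.244 to 0.18 for Col4a2, -0.769 to 0.35 for Col6a2, -3 to 0.0306 for Mmp13, -0.335 to 0.621 for Col15a1, -0.0111 to 0.455 for Col18a1, -0.696 to 0.588 for Col3a1, -0.207 to 0.521 for Col5a1, -0.103 to 0.39 for Col5a2, -0.798 to 0.375 for Col6a1, -0.0213 to 0.457 for P3h3, -0.22 to 0.723 for Lum and -0.324 to 0.608 for Dcn. Read depth limits the low members: Col9a1, Col10a1 and Col17a1 had too few reads to test.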
